A study of Homo sapiens with 10 samples.

Results

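Fibroblast growth factor (FGF) signalling was followed through 10 genes, 6 that encode ligands (FGF2, FGF4, FGF8, FGF17, FGF18 and FGF19) and 4 that encode the receptor tyrosine kinases FGFR1, FGFR2, FGFR3 and FGFR4. The genes were taken by symbol from a table of 35940 symbols, and all 10 were among the 15251 symbols with enough counts to test. Each symbol had 1 Ensembl identifier. Poly-A RNA was sequenced from ESI017, an established human embryonic stem cell line plated 24 h earlier. Cells of 1 line served in all 5 groups of 2 libraries. They were left untreated in mTeSR1, a defined medium that supplies FGF2 protein, or received WNT3A (recombinant, 300 ng/ml) or CHIR99021 (8 µM), each for 6 h and for 18 h. WNT3A is a ligand of the canonical WNT pathway, and CHIR99021 inhibits the kinase GSK3, which holds that pathway off. The labels name no solvent control for either agent, and the untreated libraries carry no time of their own. 4 of the groups had a library from each of 2 biological repeats. Both libraries of CHIR99021 at 18 h are titled repeat 2 and were treated so here. Their count columns are named like repeats 1 and 2 of the other groups, so their repeat rests on the titles. Whether those libraries were separate cultures is not stated in the sources at hand.

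FGF ligands are secreted proteins that bind receptor tyrosine kinases together with heparan sulphate. Bound receptors signal through the adaptor FRS2 to RAS and the kinases MEK and ERK, which switch on target genes and their own inhibitors of the Sprouty and DUSP families. In human pluripotent stem cells FGF2 signalling helps to maintain self-renewal, and in the embryo FGF4 and FGF8 act at the primitive streak, a site of canonical WNT signalling. FGF8, FGF17 and FGF18 form a subfamily of closely related proteins, while FGF19 belongs to the endocrine FGFs that work with a Klotho co-receptor.

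FGF18 was the ligand gene with the largest fitted rise after WNT3A, and a promoter window was available for it and for 4 other members in the RefSeq promoter table (GRCh38.p14). The window shown is the 250 bases before the RefSeq start of FGF18, chr5:171419397-171419646 on the plus strand, written 5′ to 3′. It is shown because canonical WNT signalling acts on its targets through TCF/LEF factors, and the capitals mark a match to CTTTGAT, a sequence to which these factors bind.
FGF18: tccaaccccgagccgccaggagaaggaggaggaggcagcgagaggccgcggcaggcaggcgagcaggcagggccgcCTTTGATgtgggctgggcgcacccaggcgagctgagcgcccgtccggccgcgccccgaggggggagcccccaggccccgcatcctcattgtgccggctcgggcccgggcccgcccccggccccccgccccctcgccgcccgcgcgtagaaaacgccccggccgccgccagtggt
The match lies 174 bases upstream of the start on the plus strand, in a window that is 78.8% G and C. With both strands searched, CTTTGAT occurred in 794 of 35116 promoter windows of 250 bases, or 2.26%. The shorter CTTTG, which is contained in it, occurred in 42.1%. Among the other 4 members with a window, CTTTGAT was not among the letters of FGF2, FGFR2, FGFR3 or FGFR4. The FGFR2 window (chr10:121531315-121531564) lies inside the annotated gene, away from its 5′ end, and its start matched no GENCODE transcript. Sequence before other starts of these genes was not searched. A match describes the sequence and is not evidence that a factor binds there.

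Libraries held between 1.66e+07 and 2.67e+07 estimated counts, so that 3 counts corresponded to 0.118 to 0.179 CPM (counts per 1e+06 counts of the TMM-scaled library). Every one of 8 pluripotency markers exceeded that level in every group, and their sum lay between 6019 and 7222 CPM. Of 5 fibroblast markers, DCN was at 0 in all 10 libraries and LUM in 9, whereas COL1A2 lay between 67.5 and 166 CPM. Their sum, nearly all COL1A2, was 68.6 to 101 CPM in mTeSR1, 114 to 120 and 166 to 167 after 6 h and 18 h of WNT3A, and 72.4 to 81.3 and 104 to 134 after 6 h and 18 h of CHIR99021. The 3 endothelial markers summed to 15.3 to 41.1 CPM, nearly all TEK, with PECAM1 and CDH5 at no more than 0.314 and 0.511 CPM. The 4 mesoderm markers summed to 1.65 to 1.67 CPM in mTeSR1, 11.04 to 14.34 after WNT3A for 6 h and 55.8 to 62.2 after 18 h. After CHIR99021 these sums were 1.73 to 2.91 at 6 h and 4.42 to 50.8 at 18 h. TBXT reached 60.7 CPM in a WNT3A 18 h library, and no other mesoderm marker exceeded 1.73 CPM in any library. The 3 endoderm markers summed to 0.418 to 0.964 CPM in mTeSR1 and to no more than 7.54 in treated libraries, with SOX17 at 0 in 9 libraries. Sums for neural progenitor, trophoblast or amnion, neural crest and blood markers were no more than 1.84, 0.566, 2.88 and 0.418 CPM. The part of cells with these markers in the results was not tested. The libraries mTeSR1 replicate 2 and WNT3A 6 h replicate 2 stood apart, as their deviations from the mean of all libraries followed transcript length (Spearman 0.365 and 0.464 across 15142 genes, against -0.294 to -0.003 in the other libraries). Mitochondrial transcripts made up 2.7% to 6.73% of counts.

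FGF18, FGF19 and FGF8 were higher in every treated library than in either mTeSR1 library. In single comparisons with mTeSR1, groups did not overlap for 25.6% to 46.9% of all symbols tested, in either direction. The share of symbols apart in all 4 comparisons was not computed. None of the 4 receptor genes passed the test in any comparison. In edgeR's quasi-likelihood test at an adjusted p (false discovery rate, FDR) under 0.05, 1 of the 10 genes rose after WNT3A for 6 h (FGF18), where 0.433% of all symbols were called. After WNT3A for 18 h 2 rose (FGF18 and FGF19), against 2.1% of all symbols. After CHIR99021 for 18 h 3 rose (FGF8, FGF18 and FGF19), against 2.78%. After CHIR99021 for 6 h none of the 10 passed, where 0.0197% of symbols were called. At that time DESeq2 called 2 members (FGF18 and FGF19), and the same 2 had a p under 0.05 in edgeR before adjustment. Over all symbols, DESeq2 called 1.63%, 5.52%, 0.426% and 6.26% at WNT3A 6 h, WNT3A 18 h, CHIR99021 6 h and CHIR99021 18 h, and 6.16%, 13.6%, 4.74% and 19.6% had an unadjusted p under 0.05 in edgeR. None of the 10 was called lower in these 4 comparisons. The median log2 change of the 10 genes was 0.01, 0.25, -0.14 and 0.26 in the order WNT3A 6 h, WNT3A 18 h, CHIR99021 6 h and CHIR99021 18 h, beside 0.01, 0.02, 0.01 and 0.02 over all symbols tested. Without the block the last median of the 10 genes was -0.07. Because repeats pair the libraries, the fit with the repeat as a block is given wherever it changed a call for one of the 10 genes. With that block 2 members were called at WNT3A 6 h (FGF18 and FGF19), 3 at WNT3A 18 h (FGF8, FGF18 and FGF19) and 1 at CHIR99021 6 h (FGF19), against 1.1%, 4.92% and 0.138% of all symbols.

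**Figure D1:**
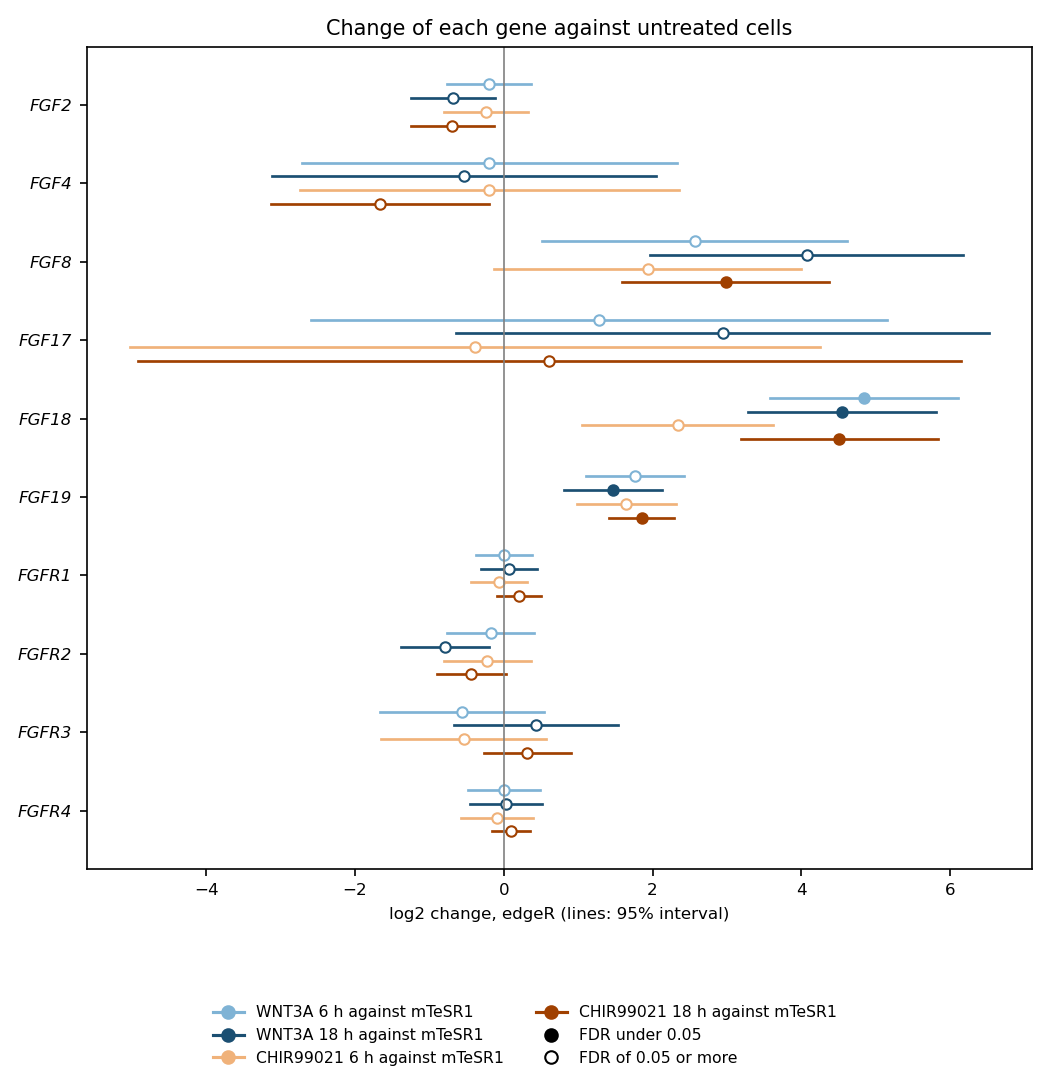
Log2 change of each of the 10 genes against mTeSR1 in edgeR (points) with its 95% interval (lines), by treatment and time. Filled points passed FDR under 0.05. FGF18 lies between 2.34 and 4.84 and FGF19 between 1.47 and 1.85, whereas FGFR1 and FGFR4 lie between -0.09 and 0.20.

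FGF18 (ENSG00000156427, GRCh38 chr5:171419656-171457623, plus strand) encodes a ligand known for its roles in bone, cartilage and lung. It was scarcely transcribed in mTeSR1, at 0.889 and 0.284 CPM, from 17 and 5 counts. After WNT3A it stood at 17.9 and 16.6 CPM at 6 h and at 14.8 and 13.3 CPM at 18 h. After CHIR99021 it stood at 2.54 and 3.51 CPM at 6 h and at 7.58 and 18.5 CPM at 18 h. All 8 treated libraries were above both untreated ones. The fitted log2 change was 4.84 at 6 h of WNT3A (95% interval 3.58 to 6.11, edgeR FDR 0.011), a 28.7-fold rise. At 18 h of WNT3A it was 4.55 (3.29 to 5.81, edgeR FDR 0.0073). At 18 h of CHIR99021 it was 4.51 (3.18 to 5.84, edgeR FDR 0.00844). At 6 h of CHIR99021 the log2 change of 2.34 (1.06 to 3.61) did not pass (edgeR FDR 0.586). DESeq2 called it (adjusted p 0.00797), where it called 0.426% of all symbols. The size of these folds rests on few counts in mTeSR1. Without mTeSR1 replicate 2, the library with 5 counts, the WNT3A 6 h change was 4.26 (FDR 0.0771) and that of CHIR99021 at 18 h 3.84 (FDR 0.167), while at WNT3A 18 h the call stayed (3.97, FDR 0.0467). Without both libraries whose deviations followed length, the change was 4.31 at WNT3A 6 h (FDR 0.172), 3.97 at WNT3A 18 h (FDR 0.0561) and 3.78 at CHIR99021 18 h (FDR 0.296).

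FGF19 (ENSG00000162344, chr11:69698232-69704642, minus strand), an endocrine FGF best known as a gut signal that restrains bile acid synthesis in liver, was already transcribed in untreated cells at 9.99 and 14.9 CPM. WNT3A libraries held 40.9 and 43.7 CPM at 6 h and 28.2 and 40.7 CPM at 18 h. CHIR99021 libraries held 30.3 and 47.7 CPM at 6 h and 57.7 and 46.0 CPM at 18 h. The lowest treated library was therefore above the higher untreated one. FGF19 rose after WNT3A for 18 h (log2 change 1.47, 95% interval 0.81 to 2.13, edgeR FDR 0.043) and after CHIR99021 for 18 h (1.85, 1.42 to 2.29, edgeR FDR 0.0045), a 3.61-fold rise in the latter. The change at WNT3A 6 h was 1.76 (1.10 to 2.43) and just missed the threshold (edgeR FDR 0.0505), which it passed with the repeat as a block (FDR 0.00328). At CHIR99021 6 h it was 1.65 (0.98 to 2.31, edgeR FDR 0.273), with a blocked FDR of 0.0149. The call at WNT3A 18 h ended when any of its 4 libraries was left out (FDR 0.0807 to 0.271), with log2 changes of 1.18 to 1.78, and with 1 row per identifier (FDR 0.0536). At CHIR99021 18 h it ended without mTeSR1 replicate 2 (FDR 0.122).

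FGF8 (ENSG00000107831, chr10:101770130-101780369, minus strand), a signal of the gastrulating embryo and of the midbrain-hindbrain boundary, was low in mTeSR1 at 0.785 and 2.16 CPM. It stood at 8.16 and 9.15 CPM after 6 h of WNT3A, and at 6.59 in repeat 1 and 42.8 in repeat 2 after 18 h. After CHIR99021 it stood at 2.87 and 8.31 CPM at 6 h and at 21.0 and 13.3 CPM at 18 h. No treated library overlapped the untreated ones, but the libraries of a group differed up to several fold. FGF8 rose after CHIR99021 for 18 h (log2 change 2.98, 95% interval 1.59 to 4.37, edgeR FDR 0.0426). That fit had the repeat as a block. Without the block the change after 18 h of WNT3A was 4.07 (1.96 to 6.18, edgeR FDR 0.0693). With the repeat as a block it was 3.83 and passed (FDR 0.00949), as it did without WNT3A 18 h replicate 1 (4.87, FDR 0.048). Within repeats the difference was 2.47 in repeat 1 and 4.03 in repeat 2, on a log2(CPM + 0.5) scale that understates changes of low genes. At 6 h the changes were 2.56 for WNT3A (FDR 0.539) and 1.93 for CHIR99021 (FDR 0.954). The CHIR99021 18 h call ended without mTeSR1 replicate 1 or 2 or CHIR99021 18 h replicate 1 or 2 (FDR 0.131, 0.518, 0.101 and 0.12), and also without the block (3.55, FDR 0.123). It ended with no low-count filter (FDR 0.138), with 1 row per identifier (FDR 0.0667) and without both libraries whose deviations followed length (2.24, FDR 0.332). From 6 h to 18 h the FGF8 change was 1.51 for WNT3A (edgeR FDR 0.432) and 1.07 for CHIR99021 (edgeR FDR 0.78). In repeat 1 of WNT3A FGF8 was lower at 18 h. The mesoderm and fibroblast marker sums given above were higher at 18 h than at 6 h of the same agent. Their highest values were nearly all TBXT and nearly all COL1A2, and whether they mark a cell type was not tested. In these bulk libraries more cells with a transcript and more transcript per cell cannot be told apart.

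**Figure D2:**
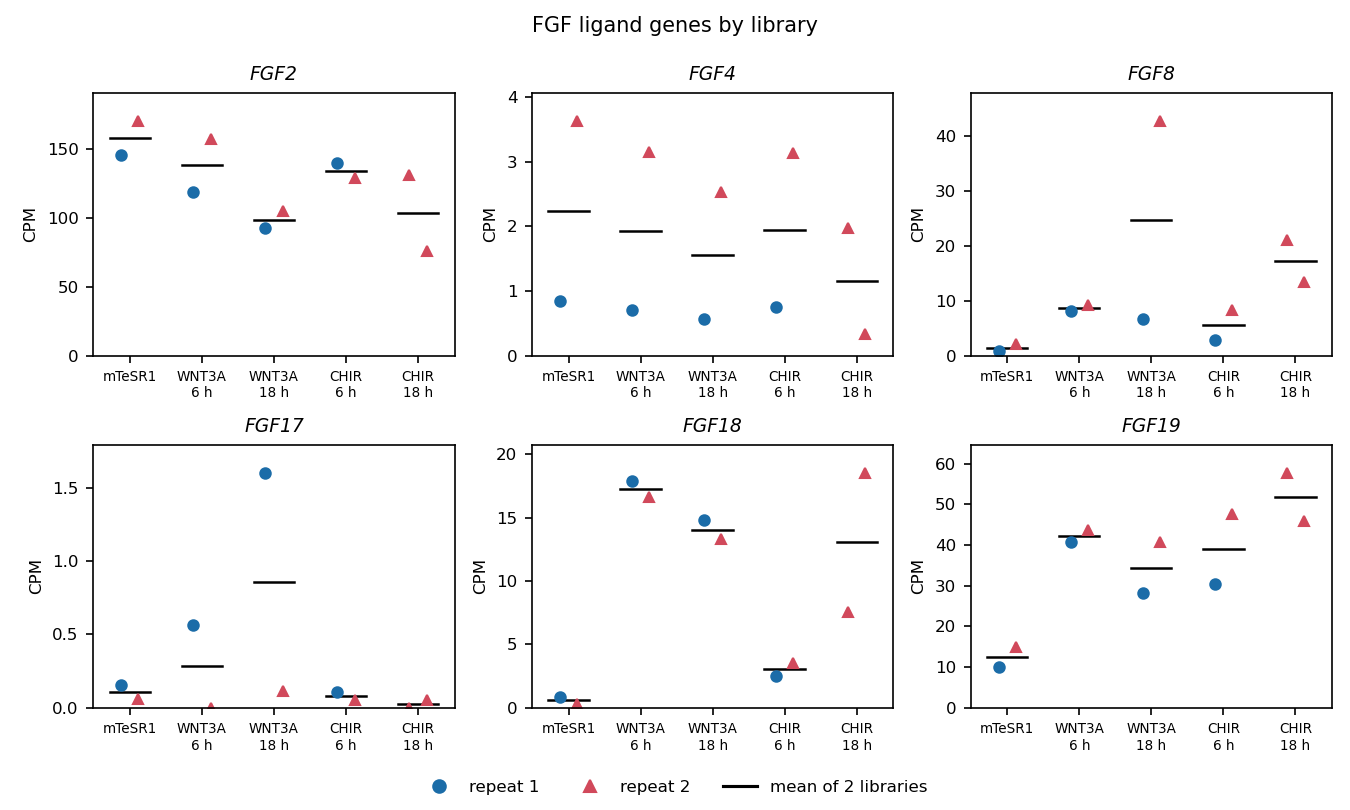
CPM of the 6 ligand genes in each library (circles, repeat 1, and triangles, repeat 2) with the mean of the 2 libraries of a group (bars), on linear axes from 0 that differ between genes. FGF18, FGF19 and FGF8 are higher in all 8 treated libraries than in mTeSR1. FGF4 splits by repeat in the groups that have both repeats, and FGF17 exceeds 0.5 CPM in 2 libraries of repeat 1.

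FGF2 (ENSG00000138685, chr4:122826708-122898236, plus strand), the ligand that the medium also supplies as protein, was the most abundant ligand transcript in mTeSR1 at 146 and 171 CPM. WNT3A libraries held 119 and 158 CPM at 6 h and 92.4 and 105 CPM at 18 h. CHIR99021 libraries held 140 and 129 CPM at 6 h and 131 and 76.1 CPM at 18 h. All 4 libraries of the 18 h treatments were below both untreated ones, with log2 changes of -0.68 for WNT3A (95% interval -1.25 to -0.11) and -0.69 for CHIR99021 (-1.25 to -0.13). Neither passed the test (edgeR FDR 0.254 and 0.179). At 6 h the changes were -0.19 and -0.24. Without CHIR99021 18 h replicate 1 the change was -1.14 and was called (FDR 0.0264), so that the library left out decides it. FGF2 overlaps NUDT6 on the opposite strand, and with the strand setting not stated in the sources at hand, reads of the shared stretch cannot be told apart.

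FGF4 (ENSG00000075388, chr11:69771016-69775403, minus strand), a ligand of the inner cell mass and of the primitive streak, was low and differed by repeat. In repeat 1 it stood at 0.837 CPM in mTeSR1, 0.708 and 0.565 after 6 h and 18 h of WNT3A and 0.757 after 6 h of CHIR99021. In repeat 2 the matching values were 3.63, 3.14, 2.53 and 3.13 CPM. The 2 libraries of CHIR99021 at 18 h, both titled repeat 2, held 1.97 and 0.339 CPM. In the groups with both repeats, the repeats thus differed more than the treatments did. The CHIR99021 18 h library at 0.339 CPM, from 6 counts, was an exception, below every library of repeat 1. In the blocked fit FGF4 was 2.11 higher on the log2 scale in repeat 2 (edgeR FDR 0.0334), where 5.96% of all symbols differed between repeats. Against mTeSR1 the changes were -0.20, -0.54 and -0.19 for WNT3A 6 h, WNT3A 18 h and CHIR99021 6 h. For CHIR99021 18 h the change was -1.66 (95% interval -3.12 to -0.19), and none passed (edgeR FDR 0.209 at the last). Without CHIR99021 18 h replicate 1 that change was -3.40 (FDR 0.0157).

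FGF17 (ENSG00000158815, chr8:22042398-22048809, plus strand), the third member of the FGF8 subfamily, was at or near the 3-count floor in most libraries. Its counts were 3 and 1 in mTeSR1, 12 and 0 after WNT3A for 6 h, 34 and 2 after WNT3A for 18 h, 2 and 1 after CHIR99021 for 6 h and 0 and 1 after CHIR99021 for 18 h. The libraries with 12 and 34 counts, at 0.566 and 1.6 CPM, were both of repeat 1. Summed over a group, 36 counts after WNT3A for 18 h against 4 in mTeSR1 gave a ratio of 8.57 (exact 95% interval 3.07 to 33.1, for counting error only). The test across libraries did not pass (edgeR FDR 0.48), and a change in repeat 2 was not detectable at this depth.

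FGF3, the neighbour of FGF4, and FGF5 belong to the other 16 FGF genes, of which 7 were tested and none was called by edgeR in any of the 8 comparisons as fitted here. FGF5, a marker of the formative and primed epiblast in mouse, was at 0 in all 10 libraries, which with 3 counts as the limit allows up to 0.118 to 0.179 CPM. FGF3 had at most 17 counts. The most abundant of the 16 were FGF13, at 30.1 ± 5.53 CPM (SD, n = 2) in mTeSR1, and FGF11, at 18.3 ± 0.433 CPM (SD, n = 2), both of the intracellular FGF homologues that are not secreted. FGF13 stood at 15.9 ± 2.8 CPM after WNT3A for 6 h (log2 change -0.92, edgeR FDR 0.3) and 37.1 ± 9.09 CPM after 18 h (0.30, FDR 0.673). Against mTeSR1, between 1 and 3 of the 7 had an unadjusted p under 0.05 in each treatment, and none was called by DESeq2. Over all symbols 6.16%, 13.6%, 4.74% and 19.6% had such a p at WNT3A 6 h, WNT3A 18 h, CHIR99021 6 h and CHIR99021 18 h. DESeq2 called 1.63%, 5.52%, 0.426% and 6.26% of all symbols in that order. With the repeat as a block FGF13 passed at WNT3A 6 h (-0.92, FDR 0.0163). From 6 h to 18 h of WNT3A its change was 1.22 (edgeR FDR 0.105), which passed with the block (FDR 0.0135, where 1.83% of all symbols were called) and in DESeq2 (adjusted p 0.00157, where 2.72% were). DESeq2 also called FGF13 between CHIR99021 and WNT3A at 18 h (-0.84, adjusted p 0.0379).

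Among receptors, FGFR1 (ENSG00000077782, chr8:38400215-38468834, minus strand), the main FGF receptor of pluripotent stem cells, was the most abundant. It stood at 651 and 530 CPM in mTeSR1, 653 and 533 after WNT3A for 6 h, 651 and 586 after WNT3A for 18 h, 577 and 548 after CHIR99021 for 6 h, and 594 and 665 after CHIR99021 for 18 h. Treated and untreated libraries overlapped in every group. Its log2 changes against mTeSR1 were 0.01, 0.07, -0.07 and 0.20, and the 95% intervals together spanned -0.45 to 0.50. The gene overlaps LETM2 on the opposite strand and a processed pseudogene, RPS20P22, on its own. FGFR4 (ENSG00000160867, chr5:177086886-177098144, plus strand), a receptor through which FGF19 acts, stood at 117 and 159 CPM in mTeSR1, 123 and 154 after WNT3A for 6 h, and 124 and 158 after 18 h. It stood at 112 and 146 CPM after CHIR99021 for 6 h and 173 and 160 after 18 h. Its log2 changes were 0.01, 0.03, -0.09 and 0.10, with 95% intervals between -0.58 and 0.52. FGFR4 was higher in repeat 2 than in repeat 1 by 0.38 on the log2 scale (edgeR FDR 0.0295), more than any of its fitted changes with treatment.

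FGFR2 (ENSG00000066468, chr10:121478334-121598458, minus strand), whose splice forms serve epithelial and mesenchymal tissues, stood at 106 and 127 CPM in mTeSR1. It held 91.3 and 114 CPM after WNT3A for 6 h and 56.2 and 78.2 after 18 h. After CHIR99021 it held 88.1 and 111 CPM at 6 h and 118 and 74.7 at 18 h. Only the WNT3A 18 h libraries lay wholly below the untreated ones. Their log2 change of -0.79 (95% interval -1.38 to -0.20) did not pass (edgeR FDR 0.196), nor with the repeat as a block (FDR 0.0547). At CHIR99021 18 h the change was -0.44 (-0.90 to 0.03, edgeR FDR 0.278), and without CHIR99021 18 h replicate 1 it was -0.80 and was called (FDR 0.0408). Gene-level counts do not separate the splice forms.

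FGFR3 (ENSG00000068078, chr4:1793293-1808872, plus strand), known for restraining growth of long bones, was the least abundant receptor, at 28.2 and 13.3 CPM in mTeSR1. It held 20.2 and 7.97 CPM after WNT3A for 6 h, 30.8 and 25.3 after 18 h, 18.5 and 10.1 after CHIR99021 for 6 h and 16.1 and 19.4 after 18 h. In every group with both repeats the library of repeat 2 was the lower, and the fitted difference was -0.89 (edgeR FDR 0.0272). Within repeats FGFR3 was higher at 18 h than at 6 h of WNT3A, by 0.60 and 1.61 on the log2(CPM + 0.5) scale. The fitted change between those times was 1.00 (95% interval -0.11 to 2.10), with an FDR of 0.407 in edgeR and 0.0581 with the repeat as a block. Its log2 changes against mTeSR1 were -0.56, 0.43, -0.54 and 0.31, and none passed. The last comes from the fit with the repeat as a block. Without the block it was -0.22, and the group mean at CHIR99021 18 h was the lower, 17.8 against 20.7 CPM.

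**Figure D3:**
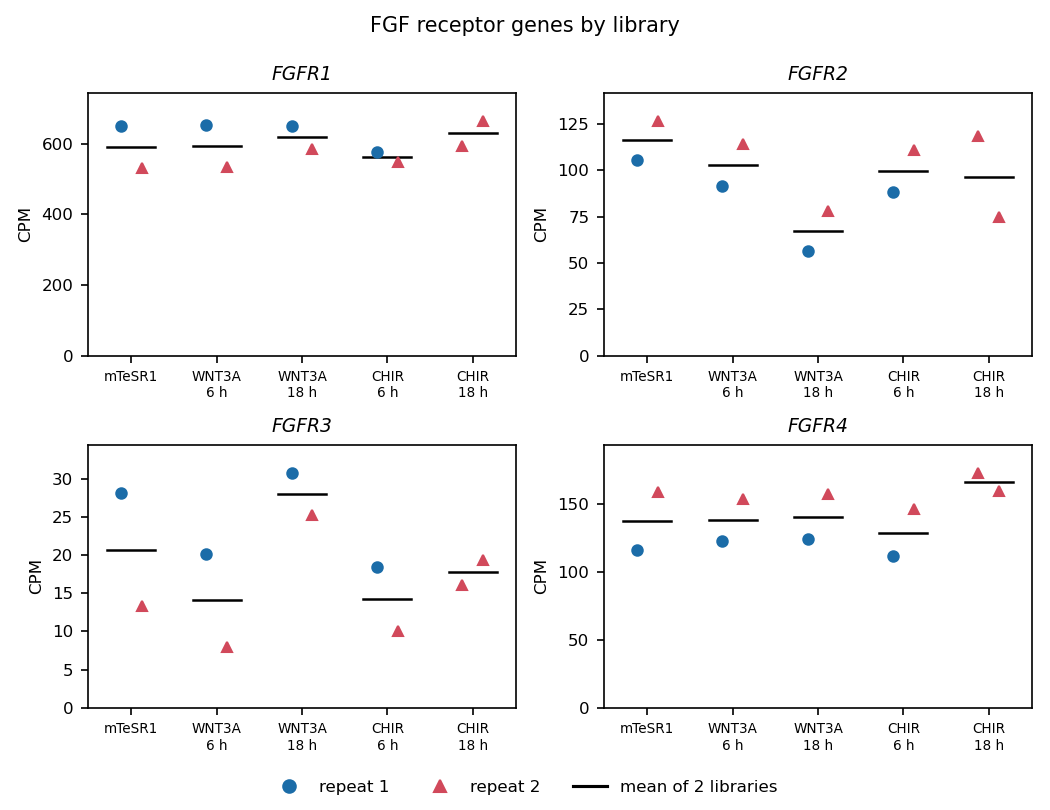
CPM of the 4 receptor genes in each library (circles, repeat 1, and triangles, repeat 2) with the mean of the 2 libraries of a group (bars), on linear axes from 0 that differ between genes. FGFR1 stays between 530 and 665 CPM, FGFR2 is lowest after WNT3A for 18 h, and FGFR3 and FGFR4 differ by repeat.

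Levels of different genes were compared as CPM per kb of the longest annotated transcript. In mTeSR1 the order was FGFR1 (94.99), FGFR4 (44.1), FGFR2 (26.6), FGF2 (23.3), FGF19 (5.09), FGFR3 (4.67), FGF8 (1.23), FGF4 (0.691), FGF18 (0.295) and FGF17 (0.0414). The neighbours FGFR2 and FGF2, FGF19 and FGFR3, FGF8 and FGF4, and FGF4 and FGF18 had levels that overlapped between libraries. FGFR1 made up 50.7% to 63.7% of the receptor signal per kb over the 10 libraries, FGFR4 21.6% to 30.5%, FGFR2 7.83% to 17.2% and FGFR3 1.1% to 4.22%. FGFR1 thus led the receptors in all 10 libraries. Among the ligands, the shares of treated libraries lay outside those of mTeSR1 for FGF2, FGF18, FGF19 and FGF8. FGF2 made up 79.6% and 73.3% of the 6 ligand genes in mTeSR1 and 20.5% to 55.8% in treated libraries. FGF18 went from 1.66% and 0.416% to between 3.46% and 19.1%, FGF19 from 15.1% and 17.7% to between 22.1% and 40.4%, and FGF8 from 2.43% and 5.24% to between 6.48% and 47.4%. These shares are of transcripts, and a share falls when another gene rises.

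**Figure D4:**
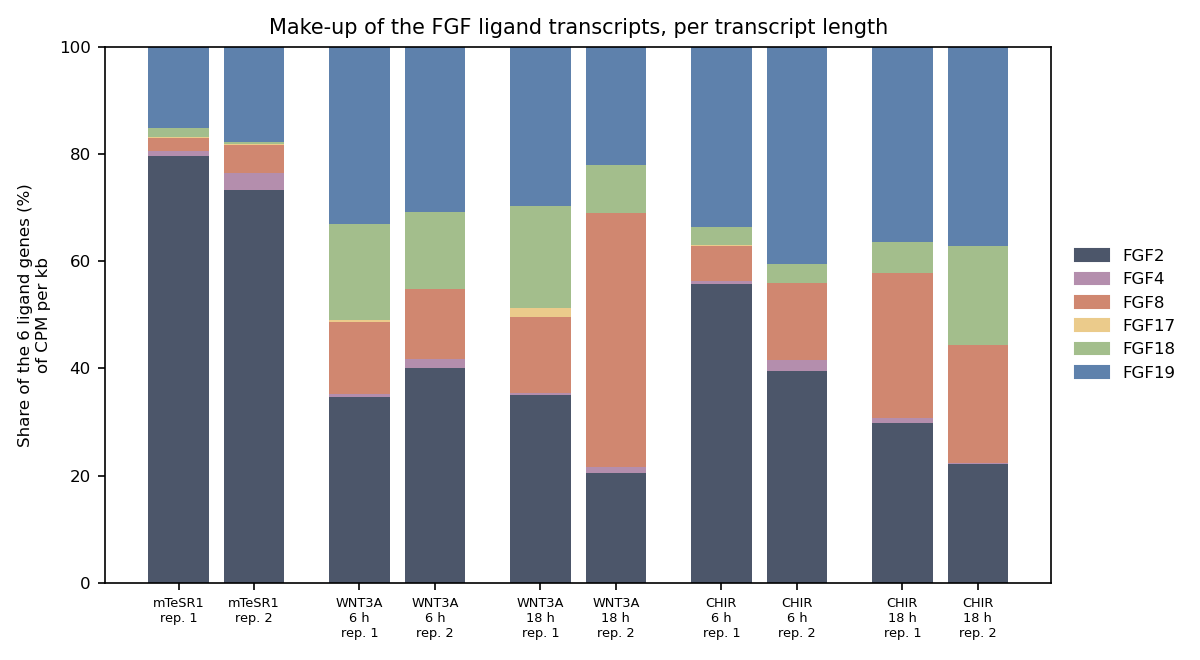
Share (%) of each of the 6 ligand genes in their summed CPM per kb, by library. FGF2 fills 73.3% or more of both mTeSR1 bars and 55.8% or less of each treated bar, and FGF8 reaches 47.4% in WNT3A 18 h replicate 2.

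The agents were then compared with each other at the same time, which gives 20 differences of the 10 genes, although WNT3A is a ligand and CHIR99021 an inhibitor and their doses cannot be matched. None of the 10 passed at 6 h, where 0.00656% of symbols did, nor at 18 h, where 0 of 15251 (0%) did. At 18 h, 629 symbols had an unadjusted p under 0.05, none of them a member, while DESeq2 called 9 symbols (0.059%) and no member. At 6 h the level of FGF18 after CHIR99021 minus that after WNT3A was -2.60 in repeat 1 and -2.09 in repeat 2 on the log2(CPM + 0.5) scale. The fitted difference was -2.51 (95% interval -3.57 to -1.44). It was the only member with an unadjusted p under 0.05 (0.000506) but did not pass the adjustment in edgeR (FDR 0.691), whereas in DESeq2 it did (adjusted p 0.00011, with 0.197% of symbols called). At 18 h the FGF18 difference was -0.04 (-1.05 to 0.96). From 6 h to 18 h of CHIR99021 the log2 change of FGF18 was 2.16 (1.09 to 3.23, edgeR FDR 0.243, DESeq2 adjusted p 0.000688 with 0.953% of symbols called), and from 6 h to 18 h of WNT3A it was -0.29 (-1.27 to 0.68). Without CHIR99021 18 h replicate 1 the change of FGF18 between the CHIR99021 times was 2.66 and passed (edgeR FDR 0.0331).

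Between the agents FGF19 differed by -0.12 at 6 h (95% interval -0.75 to 0.52) and 0.38 at 18 h (-0.04 to 0.80). FGF8 differed by -0.63 at 6 h (-2.46 to 1.2) and -0.85 at 18 h (-1.96 to 0.26), intervals wide enough to hold differences of several fold. For FGFR1 and FGFR4 the intervals were within -0.59 to 0.42 at both times. Between 6 h and 18 h none of the 10 passed for WNT3A (1 with an unadjusted p under 0.05, 0 in DESeq2), where 0.144% of symbols did. For CHIR99021 none passed either (2 with an unadjusted p under 0.05, 1 in DESeq2), where 0.00656% of symbols did. The comparisons against mTeSR1 share its 2 libraries, so a deviation of either enters all 4 of them.

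**Figure D5:**
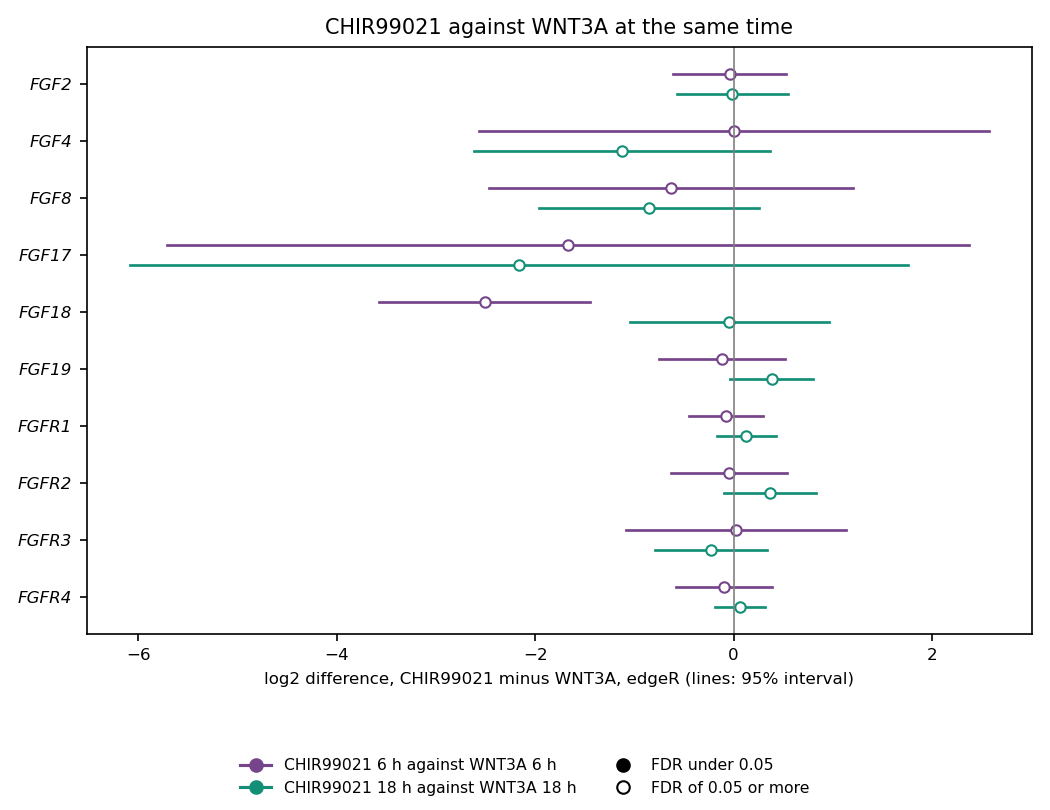
Log2 difference of each of the 10 genes between CHIR99021 and WNT3A at 6 h and at 18 h in edgeR (points) with its 95% interval (lines). All points are open, as none passed FDR under 0.05, and FGF18 at 6 h (-2.51) has the only interval that excludes 0.

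Without a test, 3 of the 10 genes had treated libraries wholly outside the range of the untreated ones at WNT3A 6 h, 5 at WNT3A 18 h, 4 at CHIR99021 6 h and 6 at CHIR99021 18 h. The same held for 25.6%, 43.1%, 32.4% and 46.9% of all symbols tested, so these counts are near the background. FGF8, FGF18 and FGF19 were among them in all 4 comparisons. Over the 10 libraries log2(CPM + 0.5) of FGF8 and FGF19 correlated at a Pearson r of 0.84, of FGF18 and FGF19 at 0.75 and of FGF8 and FGF18 at 0.74, while FGF2 and FGFR2 correlated at 0.83. FGF4 and FGFR1 had r = -0.89. All values come from the same libraries and depths, so these are descriptions.

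Of the 15251 symbols, those with the profile most like FGF18 over the 10 libraries were GBX2 (Pearson r 0.98), a homeobox gene, KITLG (0.98), the ligand of the KIT receptor, and TCF7 (0.97), which encodes a TCF/LEF factor. For FGF19 they included DACT1 (0.96), a modulator of WNT signalling, and NODAL (0.94), a TGF-β family ligand. For FGF8 they were PBX3 (0.97), PMEPA1 (0.96) and SPAG5 (0.95), and for FGF2 ZSCAN2 (0.98), PTGER4 (0.98) and SENP2 (0.97). For FGFR2 they were METTL7A (0.97), ZDHHC22 (0.96) and TMEM63A (0.96). Profiles of FGFR4 were most like PCDHB5 (0.98) and PCDHGA11 (0.97), protocadherins of a clustered family, and FAM120A (0.96). The likeness of the best match among so many symbols is high for any gene and is given as a description.

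Around FGF19 and FGF4 on chromosome 11, which lie 66.4 kb apart, neighbouring genes were called in either direction or not at all. CCND1, the cell cycle gene and textbook WNT target, stood at 158 and 210 CPM in mTeSR1 and at 712 and 872 CPM after WNT3A for 6 h (log2 change 2.11, edgeR FDR 0.00306). It also rose after WNT3A for 18 h (1.37, edgeR FDR 0.0106) and CHIR99021 for 18 h (1.28, edgeR FDR 0.00861). LTO1, 22.8 kb from FGF19, did not pass in any comparison with mTeSR1, and neither did FGF4. ANO1, a chloride channel gene 303 kb beyond FGF4, stood at 15.8 and 16.3 CPM in mTeSR1 and fell after WNT3A for 18 h to 4.76 and 2.59 CPM (log2 change -2.12, edgeR FDR 0.0135). After CHIR99021 for 18 h it fell to 3.76 and 3.33 CPM (-2.07, edgeR FDR 0.0129). The CCND1 call at WNT3A 6 h held with any 1 library left out (FDR 0.00435 to 0.0375). At WNT3A 18 h the CCND1 call ended without mTeSR1 replicate 1 or either WNT3A 18 h library (FDR 0.0682, 0.0657 and 0.0761), and at CHIR99021 18 h without either mTeSR1 library or CHIR99021 18 h replicate 2 (FDR 0.0661, 0.125 and 0.0646). The ANO1 calls ended without either mTeSR1 library or replicate 2 of the treated group (FDR 0.0586, 0.0621 and 0.0799 at WNT3A 18 h, 0.0509, 0.251 and 0.112 at CHIR99021 18 h). At both 18 h times the list of 7 genes of this region, 5 of them tested, had 2 genes called higher, FGF19 and CCND1, and 1 lower. Over all symbols 2.1% were called at WNT3A 18 h and 2.78% at CHIR99021 18 h. The list's median log2 change was 0.50 and 0.79 beside 0.02 and 0.02 over all symbols. With 5 genes tested, that median was the value of LTO1, which did not pass (edgeR FDR 0.621 and 0.282). The genes nearest to FGF18, NPM1 at 8.52 kb and FBXW11 at 404 kb, and those nearest to FGF8, NPM3 and FBXW4, did not pass against mTeSR1.

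Of 11 co-receptors and extracellular modulators of FGF signalling 8 were tested and none was called by edgeR as fitted here. IL17RD, which encodes the FGF antagonist Sef, stood at 153 and 218 CPM in mTeSR1, 396 and 470 after WNT3A for 6 h and 430 and 339 after 18 h. It stood at 256 and 227 CPM after CHIR99021 for 6 h and 263 and 352 after 18 h, so all treated libraries were above the untreated ones. Its log2 changes for WNT3A were 1.22 (edgeR FDR 0.0732) and 1.05 (FDR 0.057), and with the repeat as a block both passed (FDR 0.0426 and 0.031). ANOS1, which encodes the extracellular protein anosmin, also passed with the block at WNT3A 18 h (-1.37, FDR 0.0365). DESeq2 called IL17RD at both WNT3A times (adjusted p 0.000157 and 0.00108) and ANOS1 at WNT3A 18 h (adjusted p 0.00884). KLB, the Klotho co-receptor of FGF19, lay between 0.626 and 1.02 CPM as a group mean. In edgeR between 1 and 4 of the 8 had an unadjusted p under 0.05 in each comparison with mTeSR1, and DESeq2 called 1 at WNT3A 6 h, 2 at WNT3A 18 h, 0 at CHIR99021 6 h and 1 at CHIR99021 18 h. Over all symbols in that order, 6.16%, 13.6%, 4.74% and 19.6% had such a p, and DESeq2 called 1.63%, 5.52%, 0.426% and 6.26%. The list's median log2 changes were -0.04, -0.13, -0.07 and -0.04, beside 0.01, 0.02, 0.01 and 0.02 over all symbols.

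The 20 adaptor and kinase genes that carry the signal from receptor to ERK, FRS2, GRB2, SOS1 and MAP2K1 among them, were all tested, and none was called. In edgeR 2, 2, 0 and 1 of them had an unadjusted p under 0.05 at WNT3A 6 h, WNT3A 18 h, CHIR99021 6 h and CHIR99021 18 h, and DESeq2 called none. Over all symbols 6.16%, 13.6%, 4.74% and 19.6% had such a p, and DESeq2 called 1.63%, 5.52%, 0.426% and 6.26%. The median log2 changes of these 20 genes were 0.06, -0.03, -0.07 and -0.11, beside 0.01, 0.02, 0.01 and 0.02 over all symbols.

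Of 16 ERK feedback and target genes, all tested, 1 rose and 2 fell after CHIR99021 for 18 h, where 2.78% of all symbols were called. In the other comparisons with mTeSR1 none was called without the block. With the repeat as a block 2 were called at WNT3A 6 h (DUSP6 lower, ETV1 higher), 4 at WNT3A 18 h (DUSP6 and ETV5 lower, DUSP5 and SPRED2 higher) and 0 at CHIR99021 6 h, against 1.1%, 4.92% and 0.138% of all symbols. DUSP6, the phosphatase that inactivates ERK and a common readout of FGF signalling, stood at 104 and 88.2 CPM in mTeSR1. It held 49.4 and 27.5 CPM after WNT3A for 6 h, 70.5 and 29.5 after 18 h, 52.5 and 40.9 after CHIR99021 for 6 h, and 19.0 and 25.6 after 18 h. All 8 treated libraries were thus below the untreated ones, and the change passed at CHIR99021 18 h (log2 change -1.78, edgeR FDR 0.0138). For WNT3A the change was -1.33 at 6 h (edgeR FDR 0.394) and -0.94 at 18 h (FDR 0.35), and with the repeat as a block both passed (-1.39, FDR 0.0399, and -1.05, FDR 0.0483). For CHIR99021 at 6 h it was -1.04 (FDR 0.954). ETV5, an ETS factor induced by ERK, fell after CHIR99021 for 18 h from 41.4 and 44.0 CPM to 17.4 and 17.0 (-1.14, edgeR FDR 0.03). At WNT3A 18 h the ETV5 change of -0.94 (edgeR FDR 0.141) passed with the block (-0.99, FDR 0.0261). SPRED2, an inhibitor of RAS-ERK signalling, rose after CHIR99021 for 18 h from 24.0 and 19.1 to 28.1 and 36.3 CPM (0.81, edgeR FDR 0.0408). At WNT3A 18 h the SPRED2 change of 0.77 (edgeR FDR 0.214) passed with the block (0.76, FDR 0.0272). SPRY4, a Sprouty inhibitor, stood at 214 ± 48.5 CPM (SD, n = 2) in mTeSR1 and 161 ± 21.7 CPM after CHIR99021 for 18 h, and did not pass (FDR 0.193). The 3 calls at CHIR99021 18 h ended without the block (FDR 0.0584, 0.0674 and 0.362, with 1.19% of all symbols called) and without mTeSR1 replicate 2 (FDR 0.289, 0.471 and 0.359) or CHIR99021 18 h replicate 2 (FDR 0.0641, 0.217 and 0.283). The ETV5 call also ended without CHIR99021 18 h replicate 1 (FDR 0.0831) and that of SPRED2 without mTeSR1 replicate 1 (FDR 0.139) and with 1 row per identifier (FDR 0.055). In edgeR 3, 7, 1 and 10 of the 16 had an unadjusted p under 0.05 at WNT3A 6 h, WNT3A 18 h, CHIR99021 6 h and CHIR99021 18 h, where 6.16%, 13.6%, 4.74% and 19.6% of all symbols did. DESeq2 called 2, 2, 0 and 4 of them, where it called 1.63%, 5.52%, 0.426% and 6.26% of all symbols. The list's median log2 change was -0.21 at CHIR99021 18 h, beside 0.02 over all symbols.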

How the data were processed

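RNA from 10 libraries was sequenced as paired reads, per the labels. The deposited values are estimated counts per gene, which per the submitters' processing notes involved Salmon 1.8.0 and GRCh38. Neither the step from transcripts to genes nor the strand setting is given in the sources used here. Here counts were summed per symbol, rounded, scaled by TMM and tested by the robust quasi-likelihood method of edgeR 4.0.16 (R 4.3.3). All 10 libraries entered 1 fit, and symbols passed filterByExpr (minimum count 10, minimum total 15). P-values were adjusted by Benjamini-Hochberg over 15251 symbols. Comparisons with CHIR99021 at 18 h had the repeat as a block. The design text pairs libraries by repeat. Deviations from group means correlated at 0.277 to 0.691 over 6 pairs of groups. CPM use TMM-scaled totals of 1.66e+07 to 2.67e+07. Intervals of counts cover counting error only, and p-values measure the spread between these libraries, of which replicates differed by more than sampling noise (chi-square per degree of freedom 12.4 to 101). In simulated data for WNT3A 6 h against mTeSR1 (15017 genes, no block), 91% of 4-fold changes and 99% of 16-fold changes were called, with 21 false calls. The changed genes had a mean above 1 CPM, and no repeat or length effect was simulated. These rates therefore do not give the power for genes near the floor or in the real libraries. Coordinates are from GENCODE release 29 (GRCh38). Named are the 10 members, their 3 most similar symbols, their neighbours and called genes of 5 lists, except that some genes are not reported here. IL17RD, ANOS1, ETV1, DUSP5, SPRY4, KLB, FGF3, FGF5, FGF11, FGF13 and the adaptor genes were named after their values were seen. Members and lists were chosen with earlier results of these data known. Alternatives were DESeq2 1.42.0, RLE scaling, no filter, 1 row per identifier, the block the other way and each library left out, plus, added after seeing the data, 2 libraries left out together.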

Additional observations from a re-analysis of the deposited data

How the results depend on the processing

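Over 128 log2 changes (16 genes, 8 comparisons) and 1245 refits, none reversed while called, 1066 kept direction and side of the threshold, 49 lost it, 39 gained it and 91 changed sign while uncalled in both. Group levels moved by less than 1 SD under either other scaling. Of the 10 genes, 1 was called at WNT3A 6 h. No low-count filter, DESeq2 and the replicate block each gave 2 there, leaving out 1 library 0 to 1, and leaving out mTeSR1 replicate 2 and WNT3A 6 h replicate 2 together 0. At WNT3A 18 h 2 were called, 3 in DESeq2 and with the replicate block, 1 with 1 row per identifier, 1 to 2 with 1 library left out and 0 without both. At CHIR99021 6 h the count was 0, 1 without the filter, 2 in DESeq2 and 1 with the replicate block. At CHIR99021 18 h it was 3, 2 with no replicate block, with no low-count filter or with 1 row per identifier, 0 (without mTeSR1 replicate 2) to 5 (without CHIR99021 18 h replicate 1) with 1 library left out and 1, FGF19, without both. Between times of CHIR99021 it was 0, 1 in DESeq2 and 0 to 1 with 1 library left out. Between the agents at 6 h it was 0 and 1 in DESeq2. In the other 2 comparisons the count was 0 under every alternative run.

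Counts over all symbols moved too. With the replicate block they were 168 at WNT3A 6 h (66 without), 751 at WNT3A 18 h (320) and 21 at CHIR99021 6 h (3), and with no replicate block 181 at CHIR99021 18 h (424). DESeq2 gave 249, 809, 65 and 918. Without mTeSR1 replicate 2 they were 17, 75, 1 and 10. Fits that leave a group with 1 library assume that it varies like the others. Causes of these moves were not tested. Depth limits FGF17, FGF4 and, in mTeSR1, FGF18 and FGF8 (15 and 38 counts for FGF8).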
